A study of Mus musculus with 7 samples.

Results

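The ABC transporter family (45 genes) was followed in kidney RNA-seq of mice that lack the lamin B receptor (LBR). Its members are the lines of the deposited expression values whose symbols run from the Abca to the Abcg series. Abca1, Abcg1, Abcc2, Abcc3 and Abcc4 were set apart as other ABC genes. This left 45 members among 24328 lines of the tables. The rule used symbols alone, although results of these data were known when it was set.

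All mice were on the C57BL/6J strain and 4 weeks old. The 3 homozygous mice with the genotype Lbric-J/ic-J (LBR-null mice 4001, 4002 and 4007) were compared with 1 littermate with the genotype Lbr+/+ (WT mouse 4009). Mice 4001, 4007 and 4009 gave 2 poly(A) libraries each and mouse 4002 gave 1. RNA came from the pulverized right kidney, so each value averages all cells of the organ, and fewer cells of a type cannot be told apart from less RNA per cell. LBR has 2 known functions, anchoring silent chromatin at the nuclear periphery and reducing a sterol intermediate in cholesterol synthesis. The study used these mice to ask whether genes without a CpG island (CGI- genes) are misexpressed when that attachment is lost, compared with genes that have an island at their start (CGI+ genes).

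ABC proteins use ATP, bound by a conserved cassette, to move substrates across membranes. The A subfamily mostly handles lipids, the B and C subfamilies hold drug and conjugate exporters, bile salt and peptide transporters and the sulfonylurea receptors, and the D subfamily holds the peroxisomal fatty acid carriers and a lysosomal cobalamin transporter. The E and F proteins have no membrane domain and act on ribosomes or in translation, and the G subfamily holds sterol and urate exporters. In the proximal tubule several of them secrete drugs, urate and conjugated metabolites into the urine.

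Values are normalized counts, that is, reads per gene divided by a size factor of the library. Depth was 20694016 to 25296831 gene reads in the LBR-null libraries and 22969010 and 26333284 in those from WT, so 1 read was worth 0.787 to 1.15 normalized counts. Libraries of a mouse were averaged, and errors are SDs over the 3 LBR-null mice. The WT group is a single mouse, and p-values rest on the assumption that WT mice vary as the LBR-null mice do. Lbr itself stood at 322, 340 and 472 normalized counts in mice 4001, 4002 and 4007 and at 398 in the WT mouse, a level that cannot serve to check the labelled genotypes. No sex is stated for the mice. Xist, the RNA of the inactive X chromosome, was at 5785 and 9940 in mice 4001 and 4007 and at 65.3 and 35.5 in mice 4002 and 4009, while the Y-linked Ddx3y was at 141 and 44.3 in the first pair and at 1516 and 1284 in the second. Among LBR-null mice, only mouse 4002 had the Xist and Ddx3y pattern of the WT mouse. In means over the LBR-null mice, sex and genotype therefore cannot be fully told apart. The ratio of mouse 4002 to WT is given on its own for the 6 members called by DESeq2 and for some other genes.

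Mouse 4001 also stood apart in RNA of heart muscle. Its libraries held 107147 and 77990 normalized counts of 8 heart genes summed, and no other library held more than 1766 (Myh6, Myl7, Nppa, Tnni3, Actc1, Myl4, Tnnt2 and Mybpc3, genes chosen after their values were seen). Mouse 4001 also held both Xist and Ddx3y RNA above the lowest levels seen, and whether its libraries hold RNA of a single kidney alone was not tested, which bears on every mean and SD that includes it. Markers of kidney tubules were abundant throughout, the thick ascending limb genes Umod and Slc12a1 summing to 56716 to 139717 in LBR-null libraries against 68444 and 69887 in WT. All 6 proximal tubule genes (Lrp2, Cubn, Slc34a1, Slc5a2, Slc22a6 and Slc7a13) were lower in all LBR-null libraries than in WT, with sums of 28342 to 40686 against 106542 and 108608. All 5 neutrophil genes were higher, with sums of 362 to 2370 against 59.1 and 63.3. Macrophage genes (4 of 4, sums of 1602 to 1783 against 2428 and 2438) and podocyte genes (3 of 3, 6622 to 13472 against 16932 and 17023) were lower in every library. Erythroid and adipocyte genes, of which 2 of 5 and 2 of 3 were lower in every library, summed to 1473 to 2380 against 3771 and 3904 and to 13.8 to 55 against 197 and 235. Hepatocyte genes, of which 3 of 5 were higher in every library, summed to 9414 to 25725 against 6076 and 6251. Mural and smooth muscle genes (3 of 5 lower in every library) summed to 5655 to 7076 against 9579 and 9856. Endothelial genes (1 of 5 lower) summed to 12992 to 15279 against 15640 and 15703. Adrenal cortex genes (2 of 4 higher) summed to 156 to 216 against 119 and 132. The part of all these markers in the results below was not tested.

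ABC genes at least 2-fold from WT were mostly higher, and most of them were A members. In all, 13 of the 45 members were at least 2-fold higher in the mean of the LBR-null mice than in WT (28.9%), beside 22.7% of all 21468 genes detected in either group. These were Abca4, Abca6, Abca8a, Abca8b, Abca12, Abca13, Abca15, Abca16, Abca17, Abcb5, Abcb11, Abcc12 and Abcd4. Abcg3 alone among the members was at least 2-fold lower (2.22% of members, beside 8.8% of all genes). In each mouse taken by itself, 10 members were 2-fold higher, beside 10.4% of all genes, and Abcg3 was 2-fold lower in each, beside 4.98%. Abca8a, Abca8b and Abca17 were the members that met the rule in the mean but not in every mouse.

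By subfamily, 9 of 15 A members, 2 of 10 B members, 1 of 7 C members and 1 of 4 D members were 2-fold higher, and none of the 9 E, F and G members was. The median log2 fold change of the tested members was 1.17 in A, -0.21 in B, 0.18 in C, -0.25 in D and -0.55 in G. Over all 43 tested members it was 0.03, beside 0.01 over all 17283 genes tested. In single mice the median over members was 0.08, 0.10 and -0.04 for 4001, 4002 and 4007. The family as a whole was therefore centred near 0, with a tail of A members above it. In the plot of the members by mouse, most B, C, E and F members lie close to the WT line.

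**Figure D1:**
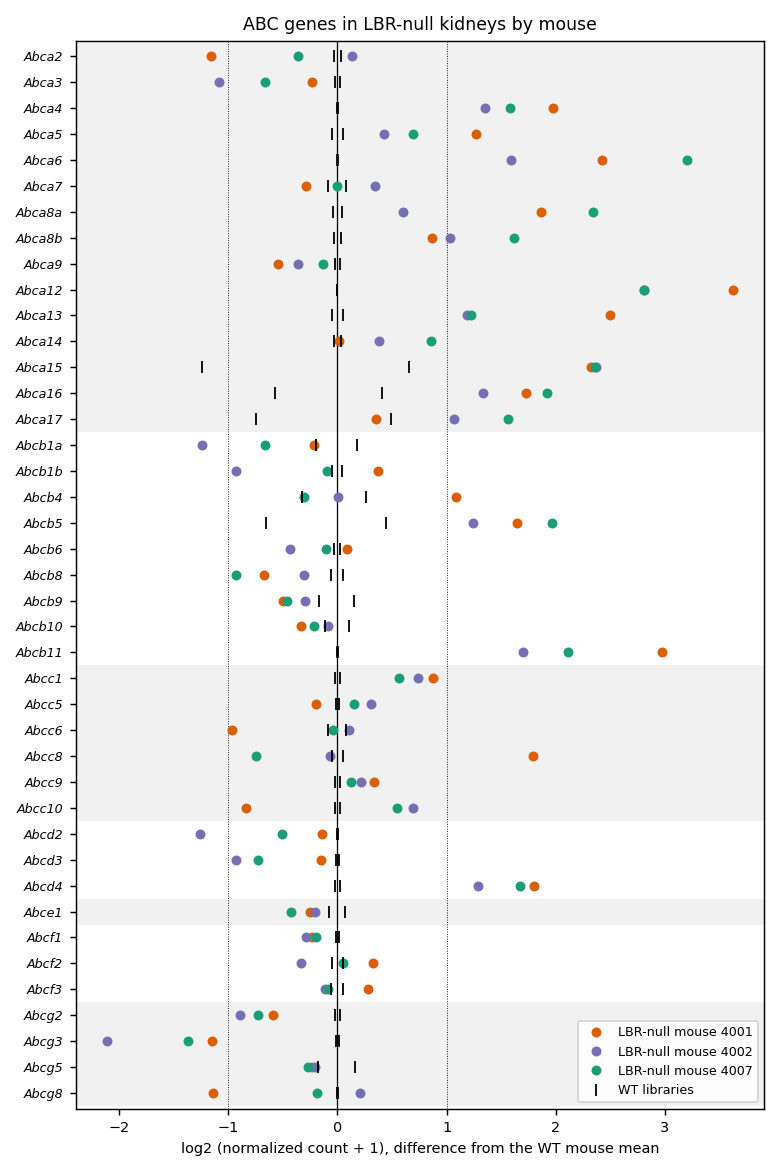
Difference from the WT mouse mean in log2 (normalized count + 1) for 41 tested ABC genes, grouped by subfamily. Coloured points are the 3 LBR-null mice, black ticks the 2 WT libraries, and dotted lines mark 2-fold. The points far to the right are mostly A members, and Abcg3 lies beyond the lower line in all 3 mice.

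No member passed limma at an adjusted p of 0.05 with a 2-fold change, and neither did any other gene (0% of all tested genes). Without mouse 4001 limma called 4 members higher (Abca4, Abca13, Abcb11 and Abcd4), beside 6.76% of all genes called in either direction, and without mouse 4002 also 4 (Abca4, Abca6, Abca8a and Abcd4), beside 3.62%. Without adjustment, 12 of 43 members were higher at a p of 0.05 and 2 were lower (Abcg2 and Abcg3), beside 10.7% and 8.05% of all genes. edgeR's quasi-likelihood test on the recovered reads called 0 members, beside 0.162% of all genes. DESeq2 on the same reads called 6 members higher (Abca4, Abca6, Abca8a, Abca13, Abcb11 and Abcd4) and none lower, beside 3.08% and 3.33% of all genes. With 3 mice against 1, an exact permutation test of a single gene cannot go below p = 0.25. Counted by libraries, 14 members had all LBR-null values above both WT values, beside 22.2% of all genes, and 9 had all of them below, beside 21.4%. This count of 9 became 15 without mouse 4001. Libraries of the same mouse are not independent, and these counts are descriptions.

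The lowest limma adjusted p of the members was that of Abcd4, closely followed by Abca4. Abcd4 encodes the lysosomal protein that passes cobalamin (vitamin B12) to the cytosol. Abcd4 was at 3552 and 3200 normalized counts in mouse 4001, at 2372 in mouse 4002, at 3039 and 3152 in mouse 4007 and at 956 and 986 in the WT mouse. The lowest LBR-null library thus lay well above the higher WT library. The means were 2948 ± 518 (SD, n = 3) and 971, a ratio of 3.04, and the ratios of single mice were 3.48, 2.44 and 3.19. The log2 fold change was 1.59 with a standard error of 0.28. The adjusted p was 0.094 by limma and 0.000233 by DESeq2, and it ran from 0.000233 to 0.273 over the 17 other settings tried. As a level per kb of exon, Abcd4 was at 356 normalized counts in WT, rank 7 of the 45 members, and at 1081 in the LBR-null mean, rank 1. Abcd3 had rank 1 in WT, at 1313 per kb, and rank 2 in the LBR-null mean, at 889. The levels per kb of Abcd4 and Abcd3 were 1238 and 1185 in mouse 4001, 870 and 688 in mouse 4002 and 1135 and 794 in mouse 4007, so the order was the same in each LBR-null mouse although the ranges over mice overlapped.

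None of the 3 genes tested as partners of Abcd4 in cobalamin handling was 2-fold changed. Lmbrd1, which encodes its lysosomal partner, was at 2457 ± 382 (SD, n = 3) against 1825 in WT. Mmachc was at 296 ± 57.8 (SD, n = 3) against 394 and Mmadhc at 1753 ± 303 (SD, n = 3) against 1984.

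Abcd2 and Abcd3 encode carriers of acyl-CoA substrates into peroxisomes, and neither was 2-fold from WT. Abcd3, the abundant peroxisomal membrane protein PMP70, was at 4776 and 4917 in mouse 4001, 2815 in 4002, 3320 and 3169 in 4007 and 5308 and 5429 in WT. All LBR-null libraries were below WT, though mouse 4001 came within a ratio of 0.903, and the log2 fold change of -0.60 had a limma adjusted p of 0.417. Abcd2 stood at 34.1 ± 12.8 (SD, n = 3) against 50.9. The peroxisome assembly genes Pex3, Pex16 and Pex19 were all within 2-fold of WT.

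**Figure D2:**
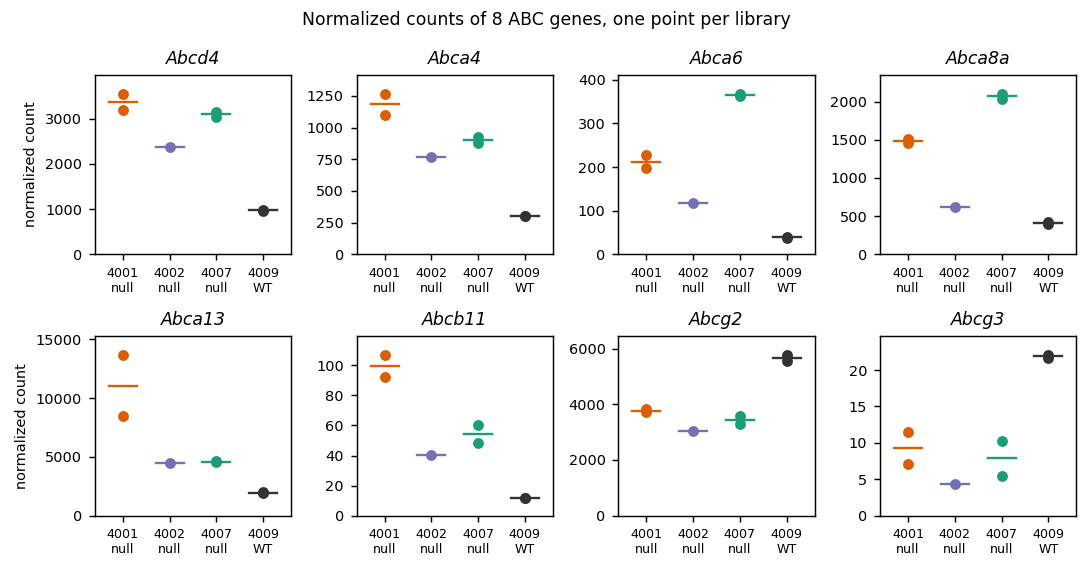
Normalized counts of 8 ABC genes, with a point for each library and a line at the mean of each mouse. Axes start at 0 and differ between genes. The WT libraries lie below all LBR-null libraries for the first 6 genes and above them for Abcg2 and Abcg3.

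Of the A members, Abca4 had the lowest limma adjusted p. It encodes the retinoid-lipid flippase of photoreceptor discs. Abca4 was at 1098 and 1266 in mouse 4001, 770 in 4002, 877 and 927 in 4007 and 299 and 301 in WT, so the groups did not overlap. The mean ratio was 3.17, with 2.56 in mouse 4002. Its log2 fold change was 1.64 (standard error 0.31), with an adjusted p of 0.097 by limma and 0.000685 by DESeq2 (0.000685 to 0.277 over the settings tried).

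Abca13, which encodes the largest protein of the family, was at 339 per kb of exon in the LBR-null mean and at 99.2 in WT. Its normalized counts were 8448 and 13646 in mouse 4001, 4468 in 4002, 4632 and 4524 in 4007 and 2024 and 1895 in WT. These 2 libraries of mouse 4001 differed 1.62-fold, the widest gap between libraries of a mouse among the 29 members with a mean of at least 100, and this is also the mouse with heart RNA. The other LBR-null mice agreed closely at 2.28 and 2.34 times WT. The log2 fold change was 1.64 (standard error 0.54, limma adjusted p = 0.182) with mouse 4001 and 1.21 without it, where the adjusted p was 0.026. DESeq2 gave an adjusted p of 0.030, and the range over all settings was 0.026 to 0.338.

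A run of 5 A members lies on chromosome 11, all read from the minus strand, in the order Abca8b, Abca8a, Abca9, Abca6 and Abca5. The run covers 405.5 kb of the mm9 genome. The encoded proteins are thought to handle lipids. All LBR-null libraries lay above WT for 4 of the 5 genes, and all lay below WT for Abca9, in the middle, as they did for 22.2% and 21.4% of all genes.

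Abca6 was at 197 and 227 in mouse 4001, 119 in 4002, 368 and 362 in 4007 and 38.6 and 38.9 in WT, the highest ratio of the run (5.99, and 3.06 in mouse 4002). Abca8a was at 1458 and 1516, 620, 2102 and 2040 in the same mice and at 418 and 396 in WT, a ratio of 3.42. In both genes mouse 4007 was highest and mouse 4002 lowest. Abca8b was at 163 and 149, 175, 286 and 241 against 87.4 and 83.2, a ratio of 2.32 (2.06 in mouse 4002), and Abca5 at 669 and 907, 439, 536 and 520 against 338 and 316, a ratio of 1.79. Abca9 was at 263 and 241, 286, 346 and 324 against 363 and 375, a ratio of 0.790. Thus the neighbour of the gene with the highest ratio was the single gene of the run below WT.

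The spread between mice was wide in this run. The log2 fold change of Abca6 was 2.41 (standard error 0.61), with an adjusted p of 0.122 by limma and 0.00206 by DESeq2 (0.00206 to 0.321 over the settings tried). For Abca8a it was 1.60 (0.62), with 0.240 by limma and 0.047 by DESeq2 (0.018 to 0.482), and mouse 4002 reached a ratio of only 1.52. Abca8b had a limma adjusted p of 0.189 and Abca5 of 0.312. Abca8a and Abca8b are close paralogs, and reads they share may have been split between them. Fam20a and Prkar1a, on one side of the run, were at 1.10 and 0.890 times WT, and Map2k6 and Kcnj16, on the other, at 1.06 and 1.51.

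**Figure D3:**
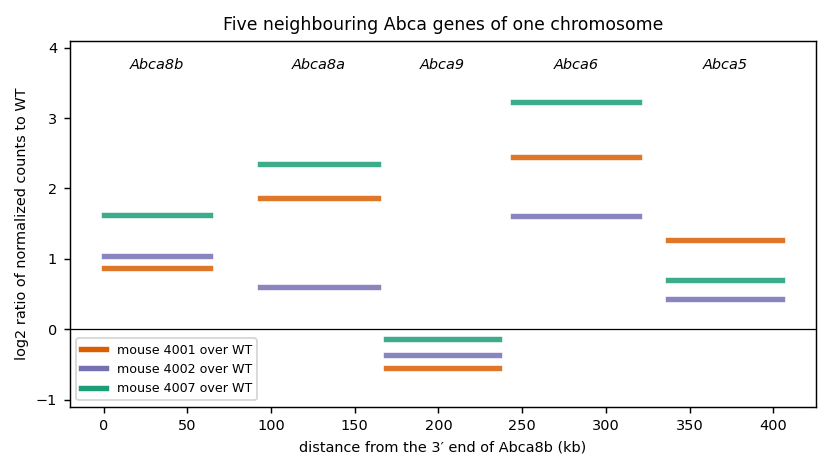
The log2 ratio to WT for 5 Abca genes of chromosome 11, drawn over the extent of each gene in kb. Each coloured bar is an LBR-null mouse. All 3 bars lie above 0 for Abca8b, Abca8a, Abca6 and Abca5 and below 0 for Abca9.

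The sequences before the starts of 3 genes of the run are shown because these starts differ in CpG content, the feature by which the study divided genes. Each is the 250 bases upstream of the annotated start in mm9 (NCBIM37), read 5′ to 3′ on the strand of the gene, with every CpG in capitals.
Abca6, chr11:110113091-110113340, minus strand: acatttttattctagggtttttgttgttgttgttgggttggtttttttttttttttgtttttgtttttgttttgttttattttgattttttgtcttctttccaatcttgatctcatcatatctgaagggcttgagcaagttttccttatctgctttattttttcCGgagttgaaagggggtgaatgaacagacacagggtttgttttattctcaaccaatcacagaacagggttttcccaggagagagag
Abca8a, chr11:109957293-109957542, minus strand: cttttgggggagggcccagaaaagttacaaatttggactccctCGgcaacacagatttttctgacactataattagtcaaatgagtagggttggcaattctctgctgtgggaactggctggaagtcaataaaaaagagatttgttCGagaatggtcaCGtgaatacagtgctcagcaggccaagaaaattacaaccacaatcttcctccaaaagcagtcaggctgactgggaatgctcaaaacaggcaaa
Abca5, chr11:110199031-110199280, minus strand: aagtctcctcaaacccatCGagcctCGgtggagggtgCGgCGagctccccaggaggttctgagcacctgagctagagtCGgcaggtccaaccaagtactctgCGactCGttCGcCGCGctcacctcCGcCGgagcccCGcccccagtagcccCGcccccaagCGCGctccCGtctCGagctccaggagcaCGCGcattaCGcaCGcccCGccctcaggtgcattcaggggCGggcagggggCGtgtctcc
The Abca6 window holds 1 CpG, and 92.8% of the 19051 matched genes have as many or more. The Abca8a window holds 3 (77.8%) and the Abca5 window 25 (13.6%). Abca9, the member below WT, also has 1 CpG in its window, so the count does not order the ratios of this run.

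An island was called from the genome sequence where GC content was at least 50%, the ratio of observed to expected CpG over 0.6 and the length over 200 bp. By this rule 24 members were CGI+ (an island within 500 bp of a coding start), 17 were CGI- and 4 had an island in the gene body only. Of the 17 CGI- members, 10 were 2-fold higher (58.8%), 1 was 2-fold lower and 6 were neither, beside 39.5% higher and 14.4% lower among the 5381 CGI- genes detected. Of the 24 CGI+ members 1 was 2-fold higher, Abcd4 (4.17%, beside 8.34% of all detected CGI+ genes), and none was 2-fold lower, beside 5.76%. These classes differ in level, since the median WT level was 85.3 normalized counts in CGI- members but 2.14 in all CGI- genes, and few reads make ratios imprecise. Among CGI- genes above 30 normalized counts in WT, a limit set after the values were seen, 5 of 11 members (Abca4, Abca6, Abca8a, Abca8b and Abca13) were 2-fold higher (45.5%), beside 8.82% of 2098 genes, and none was 2-fold lower, beside 18.9%. Of these 5 members 3 belong to the chromosome 11 run, and the members were too few for more than a description.

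The classes depend on how an island is defined. With a stricter definition (GC of at least 55%, ratio over 0.65, length over 500 bp) 28 members were CGI- and 16 CGI+, and then 12 of the 28 (42.9%) and none of the 16 were 2-fold higher, beside 28.5% and 7.55% of all detected genes of these classes. Abcd4 changes class between these definitions, and its upstream window is shown for that reason.
Abcd4, chr12:85958417-85958666, minus strand: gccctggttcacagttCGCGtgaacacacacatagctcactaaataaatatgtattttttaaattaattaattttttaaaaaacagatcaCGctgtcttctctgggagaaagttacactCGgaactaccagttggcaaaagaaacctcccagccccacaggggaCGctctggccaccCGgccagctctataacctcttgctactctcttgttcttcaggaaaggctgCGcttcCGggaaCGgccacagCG
It holds 10 CpG, and 50.9% of genes have as many or more. The plot of change against upstream CpG places Abcd4 among the CGI+ members with few CpG, and all other members above a log2 fold change of 1 lack an island near their start.

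**Figure D4:**
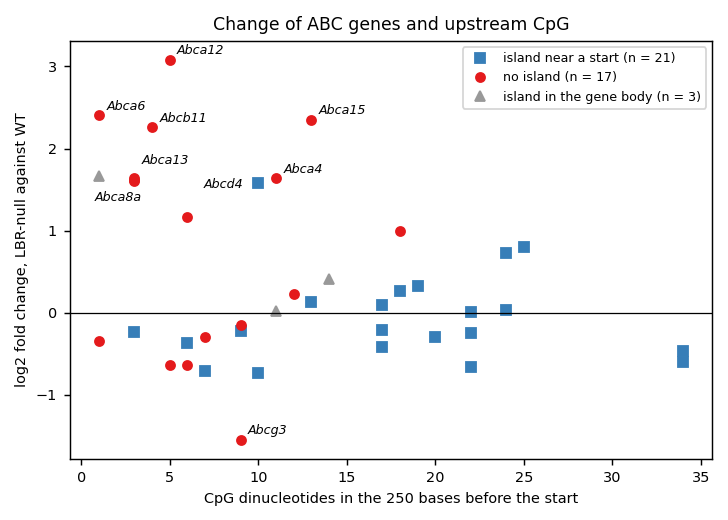
Log2 fold change of 41 tested members against the number of CpG in the 250 bases before the start. Squares have an island near a start, circles have none and triangles have an island in the body only. Above a log2 fold change of 1 there is a single square, Abcd4.

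The remaining A members above 2-fold were low. Abca12, which carries glucosylceramide in the epidermis, had no read in either WT library and 42 reads over the 5 LBR-null libraries, with values of 13.8 and 8.87, 6.02, 8.38 and 3.65. Against a floor of 3 reads per WT library this is at least 3.07-fold higher. Abca15 had 3 reads in WT and 58 in the LBR-null libraries, a ratio of 8.61 with a 95% counting interval of 2.81 to 43.0. It lies on chromosome 7 between Abca14 and Abca16, rodent genes known mainly from testis.

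Abca15 was at 12.6 and 8.87, 11.2, 14.9 and 7.29 in the LBR-null mice and at 0 and 2.71 in WT. Abca16 was at 14.9 and 19.5, 12.9, 24.2 and 15.5 against 6.30 and 2.71. For these genes no LBR-null library reached down to WT, but the WT libraries differed by more than 2-fold from each other. Abca17, on chromosome 17, was at 21.8 and 31.1, 43.8, 69.8 and 54.7 against 29.1 and 11.8, so its groups overlapped. Abca14 stood at 13.7 ± 4.38 (SD, n = 3) against 9.70. Intervals and floors cover counting error only, and at such counts the log2 scale with 1 added understates ratios.

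Abca2, Abca3 and Abca7 did not pass the test. Abca3, the surfactant phospholipid transporter of the lung, was lower in every library, at 1745 ± 508 (SD, n = 3) against 2678. Abca2 was at 1291 ± 539 (SD, n = 3) against 1670 and Abca7 at 632 ± 140 (SD, n = 3) against 613. The limma adjusted p was 0.65 for Abca2, 0.375 for Abca3 and 0.981 for Abca7.

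In the B subfamily Abcb11, the bile salt export pump of hepatocytes, stood out. It was at 107 and 92.3 in mouse 4001, 40.4 in 4002, 48.4 and 60.2 in 4007 and 11.8 in both WT libraries. Every LBR-null library was more than 3 times the WT level, with a ratio of 3.43 in mouse 4002, and mouse 4001 was highest. The log2 fold change was 2.26 (standard error 0.59), with an adjusted p of 0.124 by limma and 0.015 by DESeq2 (0.015 to 0.345 over the settings tried). The summed hepatocyte markers were also highest in mouse 4001, at 25725 and 17975, and were 11150 in mouse 4002 and 9600 and 9414 in mouse 4007, against 6076 and 6251 in WT. In mouse 4007 the sum rested mostly on Serpina1a, at 5637 against 1369. Fgb was also higher in that mouse, at 442 against 149, as was Apoa1, at 240 against 112. Alb was at 1546 against 1565 and Ttr at 1642 against 2968. Their part in the difference of Abcb11 was not tested.

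Abcb5, a drug efflux pump, was the other B member above 2-fold, at 9.19 and 14.2, 8.6, 17.7 and 11.8 against 1.57 and 4.52, which are few reads. The P-glycoproteins, which export drugs across the apical membrane of the tubule, did not pass the test. Abcb1a was at 101 and 83.4, 44.7, 74.5 and 60.2 against 121 and 93.2, and Abcb1b at 367 and 369, 149, 251 and 281 against 294 and 276. Both were lowest in mouse 4002, and their ranges met or enclosed those of WT. They are close paralogs, so reads may have been split between them. Abcb4, the phosphatidylcholine floppase of bile, stood at 23.9 ± 13.5 (SD, n = 3) against 17.9.

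Abcb6, Abcb8, Abcb9 and Abcb10 were close to WT or below it. Abcb8 was at 979 ± 213 (SD, n = 3) against 1498 and lower in every library, as was Abcb9, a lysosomal peptide transporter, at 184 ± 13.9 (SD, n = 3) against 247. Abcb10, which supports heme synthesis, stood at 677 ± 58.4 (SD, n = 3) against 782, and Abcb6, a porphyrin transporter, at 943 ± 166 (SD, n = 3) against 1036. The lowest limma adjusted p of these 4 was 0.322, for Abcb8.

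Of 6 related genes of mitochondrial iron and heme, Slc25a28 (mitoferrin 2) was 2-fold higher. It was at 1789 and 1566 in mouse 4001, 1404 in 4002, 1986 and 1995 in 4007 and 862 and 791 in WT, with a limma adjusted p of 0.132. The erythroid mitoferrin Slc25a37 was lower, at 578 ± 135 (SD, n = 3) against 849.

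Abcc1 (MRP1), the exporter of glutathione conjugates and leukotrienes, had the lowest limma adjusted p of the C members. Abcc1 was at 1748 and 2431 in mouse 4001, 1904 in 4002, 1674 and 1682 in 4007 and 1158 and 1119 in WT. No library overlapped between groups, and the ratio was 1.66 (1.67 in mouse 4002). The log2 fold change was 0.73 (standard error 0.25) with a limma adjusted p of 0.189, short of 2-fold. Abcc5 (MRP5) was at 1079 and 1279, 1672, 1453 and 1549 against 1363 and 1333, and Abcc6 (MRP6), mutated in pseudoxanthoma elasticum, at 109 and 122, 244, 223 and 220 against 240 and 214. Mouse 4001 was the lowest in both genes, and in Abcc10 (MRP7) as well, where it reached 0.559 times WT while the other mice stood at 1.62 and 1.46. Abcc10 shares 51 bp of exon with Dlk2 on the other strand. Abcc12 (MRP9) had 1 read in WT and 18 in the LBR-null libraries, a ratio of 8.02 with a 95% counting interval of 1.27 to 334, and was below the level needed for the test.

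The sulfonylurea receptors regulate K-ATP channels and do not themselves export a substrate. Abcc8 (SUR1) was at 88.4 and 92.3 in mouse 4001, 24.1 in 4002, 14.0 and 15.5 in 4007 and 24.4 and 26.2 in WT. Only mouse 4001 was above WT. Kcnj11, which encodes the channel pore that SUR1 joins, was at 94.2 and 111 in mouse 4001, 29.2 in 4002, 21.4 and 24.6 in 4007 and 33.9 and 28.9 in WT. The same mouse held the heart muscle RNA. In both genes, no library of the other LBR-null mice exceeded the higher WT library. Abcc9 (SUR2) was at 503 and 587, 503, 497 and 448 against 439 and 426, a ratio of 1.17, and its pore partner Kcnj8 was 1.5 times WT and higher in every library (limma adjusted p = 0.355).

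**Figure D5:**
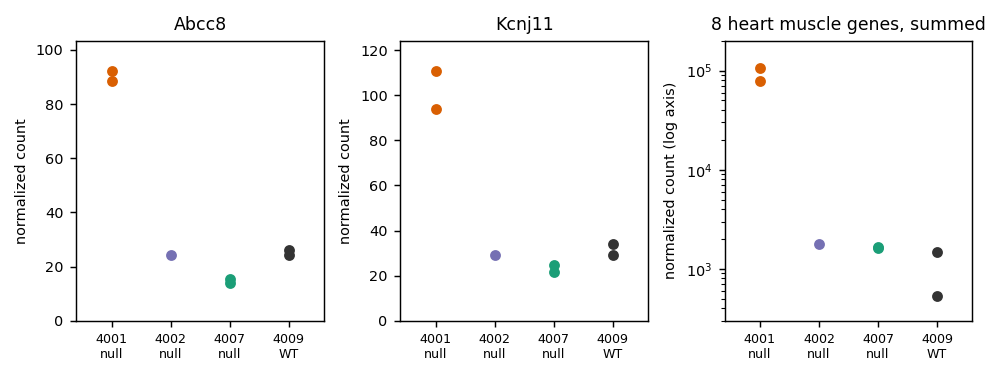
Normalized counts of Abcc8, of Kcnj11 and of 8 heart muscle genes summed, with a point for each library, the last on a log axis. Both libraries of mouse 4001 lie above all others in each panel. For Abcc8 and Kcnj11, no other LBR-null library exceeds the higher WT library. For the heart genes, the other LBR-null libraries lie above WT (1611 to 1766 against 530 and 1490).

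Genes of the E and F subfamilies, which act in translation, were abundant and changed little. Abce1, which recycles ribosomes, was at 1643 and 1815, 1779, 1596 and 1461 against 1949 and 2158. Abcf1 was at 2260 and 2056, 2075, 2165 and 2266 against 2559 and 2518. Both were lower in every library by a narrow margin, at 0.818 and 0.847 times WT. Abcf2 and Abcf3 were each 1.03 times WT. The limma intervals of the log2 fold change were -0.86 to 0.28 for Abce1 and -0.79 to 0.31 for Abcf1, so changes of that size could not be told from none. Of 5 genes of ribosome rescue and translation termination or initiation (Pelo, Hbs1l, Etf1, Gspt1 and Eif2s1), none was 2-fold changed.

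All 5 members of the G subfamily had group means below WT. Abcg1, a G gene set apart from the members, was above WT (1333 against 644). The median log2 fold change of all tested genes was 0.01, so means below WT were common. Abcg2 (BCRP), which secretes urate and drugs at the brush border of the proximal tubule, was at 3839 and 3712 in mouse 4001, 3056 in 4002, 3565 and 3285 in 4007 and 5568 and 5766 in WT. The groups were well apart, with a ratio of 0.603 (0.539 in mouse 4002). The log2 fold change was -0.73 (standard error 0.26) with an adjusted p of 0.203 by limma and 0.115 by DESeq2 (0.069 to 0.582 over the settings tried). All 6 proximal tubule markers were also lower, their sum being 28342 to 40686 against 106542 and 108608, and their part in the level of Abcg2 was not tested.

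Abcg3, a rodent gene close to Abcg2 in sequence, was at 11.5 and 7.10, 4.30, 10.2 and 5.47 against 22.0 and 21.7. The ratio was 0.327 and its log2 fold change -1.54 (standard error 0.62, limma adjusted p = 0.256). These are few reads. The sterolins Abcg5 and Abcg8, which together export plant sterols, stood at 26.1 ± 0.626 (SD, n = 3) against 30.9 and at 20.8 ± 9.22 (SD, n = 3) against 25.3, and they share 82 bp of exon on opposite strands. Abcg4 stood at 4.32 ± 0.192 (SD, n = 3) against 6.2 and was below the level needed for the test.

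Outside the members, 40 related genes were chosen for their roles. Of these, 5 were at least 2-fold higher (12.5%, beside 22.7% of all genes) and 2 at least 2-fold lower (5%, beside 8.8%). limma called none, and 5 were higher and 4 lower at an unadjusted p of 0.05, beside 10.7% and 8.05% of all genes. DESeq2 called 4 higher and 1 lower, beside 3.08% and 3.33%. The other ABC genes Abca1 and Abcg1, which export cholesterol, were at 3090 ± 537 and 1333 ± 126 (SD, n = 3) against 967 and 644, with limma adjusted p-values of 0.091 and 0.114. Cftr, the chloride channel of the C subfamily, was at 31.0 and 31.9, 20.6, 21.4 and 25.5 against 89.0 and 80.5 (limma adjusted p = 0.129). The peptide transporters Tap1 and Tap2 were lower in every library, at 325 ± 34.4 and 575 ± 29.9 (SD, n = 3) against 571 and 733. The conjugate exporters Abcc2, Abcc3 and Abcc4 were at 2350 ± 962, 1028 ± 356 and 1438 ± 357 (SD, n = 3) against 1830, 1714 and 1713, and of these Abcc3 was lower in every library.

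Of 13 regulators of xenobiotic and sterol genes, Nr1i3, which encodes the receptor CAR that induces drug exporters in liver, was at 206 and 225, 283, 487 and 458 against 16.5 and 19.9. This ratio of 17.8 was the highest among the related genes, with a limma adjusted p of 0.069. Ppara was at 3562 ± 1244 (SD, n = 3) against 1397, 2.55 times WT but 1.58 times in mouse 4002. Nr1h3, which encodes the oxysterol receptor LXR alpha, was at 390 ± 67.1 (SD, n = 3) against 794. Abca1 and Abcg1 are known targets of that receptor. The sterol regulator Srebf2 stood at 1058 ± 133 (SD, n = 3) against 1943.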

How the data were processed

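Poly(A) RNA-seq of kidneys from 3 LBR-null mice and 1 WT littermate was analysed. Per the submitters' processing notes, STAR 2.6.0, DESeq2 1.25.1 and the build mm9 were used. The deposited signal of each library is its read count per gene symbol divided by a DESeq2 size factor. The counting program and its annotation are not given in the sources used here. All deposited values (100%) were whole multiples of the value of 1 read within 0.01 read, so reads were recovered by division. Whether both libraries of an animal started from different aliquots is not stated.

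Libraries were averaged per mouse. In R 4.3.3, limma 3.58.1 (trended eBayes) was fitted to log2(normalized counts + 1) of the 17283 genes whose mean reached 5. Adjustment was by Benjamini-Hochberg over these genes, with 2 residual degrees of freedom. edgeR 4.0.16 and DESeq2 1.42.0, on recovered reads summed per mouse, were alternatives, as were pseudocounts of 5 and 0.5, no filter, a minimum mean of 20, TMM scaling, equal totals and leaving out mice or libraries. Fits were tested on simulated data. Of 24326 different symbols on 24328 lines, 19051 (78.3%) and all 45 members matched a coding gene of GENCODE vM1 on NCBIM37, from which coordinates, exon lengths and island classes were taken. Islands came from sequence alone, and classes can differ from those of the study. Values per library are given for 12 members fixed for their roles and for members with a mean of at least 5 that were 2-fold changed or called by any tool. Of these members 2 are not reported here. Others were added after their values were seen. Members and lists were chosen with earlier results of these data known.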

Additional observations from a re-analysis of the deposited data

How the results depend on the processing

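The 13 members at least 2-fold higher stayed between 10 and 16 under all alternatives tried. With a 1.5-fold limit, 5 members were lower in place of 1. The count of members below WT in every library was 9 to 15 when mice or libraries were left out, with 15 without mouse 4001. limma called 0 to 4 members in the same series: 4 without mouse 4001 (6.76% of all genes) and 4 without mouse 4002 (3.62%). DESeq2 called 6 (6.42% of all genes). With 1 mouse fewer, limma has less information on the spread, and the cause of the added calls was not tested. The median log2 fold change of the members ran from -0.10 without mouse 4001 to 0.10 without mouse 4002. Under the stricter island definition 28 members were CGI- in place of 17. Of 385 fits of 23 named genes under alternatives, 368 kept direction and side of the threshold and 14 came to pass it. The direction turned in 3, each when a mouse was left out, with these ranges over left-out mice and libraries: Abcb1b (-0.52 to 0.14), Abcc5 (-0.019 to 0.23) and Abcc6 (-0.50 to 0.032). No paired analysis was possible because numbers in the labels mark libraries of a mouse and the WT group has 1 mouse. Members with a mean below 20 normalized counts over the 4 mice (Abca12, Abca14, Abca15, Abca16, Abcb5, Abcc12, Abcg3 and Abcg4) are limited by depth.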
